A study of Mus musculus with 5 samples.

Results

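The genes described here are 10 C-type lectins of the Dectin and MGL type, measured by bulk RNA sequencing in macrophages sorted from the mouse aorta. They were taken as a given list of myeloid C-type lectin genes, and the Ensembl IDs of the deposited tables were matched to their symbols. All 10 were found among 41388 gene IDs. The list holds 3 DCIR-type genes (Clec4a1, Clec4a2 and Clec4a3), 4 genes for activating or activating-type receptors of the Dectin-2 cluster (Clec4b1, Clec4n, Clec4d and Clec4e), the Dectin-1 gene Clec7a, and the MGL pair Clec10a and Mgl2.

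The adventitia group consisted of 3 libraries from ApoE-/- mice on the C57BL/6 strain that were kept on a high fat diet over 28 weeks; 6 mice are given for the whole group. Their cells came from the outer layer of the entire aorta, abdominal part included, and were sorted as live CD64+ cells. The intima group consisted of 2 libraries from C57BL/6 mice, each a pool of 5 animals. Its cells came from the thoracic aorta after the adventitia had been stripped off, and were gated on CD64, CD11c and MHC II among live cells. The labels give no age for either group and no diet for the intima mice. Layer, genotype, aortic segment and gate differ together, and diet, given for the adventitia mice alone, may differ with them. What each of these adds to a difference cannot be told apart. The labels do not say how the 6 mice were spread over the adventitia libraries, so the p-values reflect library-to-library spread, which may be technical in part.

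Counted reads numbered 3941381, 10076142 and 10054377 in adventitia, against 14970204 and 20806925 in intima. Apoe, the disrupted gene, had 21.1, 18.9 and 10.8 CPM (counts scaled to library size) in adventitia against 4741 and 4209 CPM in intima, in the direction the genotype labels give. All 12 macrophage markers on a list, among them Csf1r, Adgre1 and C1qb, were detected in all 5 libraries. They summed to 24603 to 31381 CPM in adventitia against 25685 and 19681 CPM in intima. At an unadjusted p of 0.05 edgeR had 1 higher (Itgam) and 2 lower (Adgre1 and Cx3cr1), beside 22.4% of all tested genes in either direction. After adjustment edgeR called 0 of them, and DESeq2 and limma voom each called 1, Cx3cr1, lower. Markers of other cell types were not equal between the groups. Summed over their lists, 8 monocyte markers had 2463 to 2723 CPM in adventitia against 871 and 1057 CPM in intima, 7 fibroblast markers 633 to 1473 against 213 and 267 CPM, and 8 endothelial markers 31.6 to 49.5 against 690 and 811 CPM. The 11 dendritic cell markers had 46.7 to 133 CPM in adventitia against 55.3 and 77.7 CPM in intima, where Xcr1 was at 0 in both libraries. In intima most of that sum came from Cd24a (42.0 and 44.8 CPM) and Clec9a (4.94 and 21.5 CPM). Of 10 dendritic markers tested, 7 had higher CPM in every adventitia library and 2 had lower CPM, beside 26.4 and 14.1% of all tested genes. Those 7 had few or no reads in intima and passed the low-count filter through the adventitia libraries, so the filter itself favoured that direction. Among those 7, edgeR called 1 higher, Kmo, and DESeq2 and limma voom called 4 higher each. The 8 neutrophil markers had 59.5 to 125 CPM against 4.61 and 83.6 CPM, with Ly6g and Retnlg at 0 in both intima libraries. The 6 mast cell markers had 4.82 to 11.7 CPM against 0.0481 and 0.468 CPM, with Cpa3, Mcpt4, Cma1 and Tpsb2 at 0 in both intima libraries. For 6 smooth muscle markers the sums were 3.28 to 6.09 CPM in adventitia against 73.7 and 252 CPM in intima, for 8 T and NK cell markers 2.54 to 8.83 against 0.134 and 38.2 CPM, and for 6 B cell markers 236 to 773 against 888 and 961 CPM. The part of these cells in the lectin values was not tested. In such bulk samples fewer cells of a type and less RNA per cell cannot be told apart.

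C-type lectins are membrane receptors of myeloid cells that bind sugars or lipids through a carbohydrate recognition domain. Dectin-1 signals through a tyrosine motif of its own tail, while Dectin-2, Mincle and MCL signal through the Fc receptor gamma chain, and both routes lead to the kinase Syk and the adaptor CARD9. DCIR1, encoded by Clec4a2, instead carries an inhibitory tyrosine motif that recruits phosphatases. The MGL receptors bind galactose and N-acetylgalactosamine and are widely used as markers of macrophages exposed to IL-4.

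The genes form 3 groups on the GRCm38 genome. A run of 7 lies close together on chromosome 6, in the order Clec4a1 (chr6:122921848-122934619), Clec4a3 (chr6:122952515-122969875), Clec4b1 (chr6:123049962-123071555), Clec4a2 (chr6:123106428-123143999), Clec4n (chr6:123229843-123247021) and Clec4d (chr6:123262107-123275268), all on the plus strand, and Clec4e (chr6:123281789-123289870) on the minus strand. Clec7a lies 6172 kb beyond Clec4e on the same chromosome (chr6:129461591-129472777, minus strand). Mgl2 (chr11:70130329-70137550) and Clec10a (chr11:70156197-70170834) are neighbours on the plus strand of chromosome 11, with a gap of 18.6 kb between them.

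The members are related enough that a short read can match more than 1 of them. The coding sequences of Clec10a and Mgl2 were identical at 91.0% of 925 aligned bases, and those of Clec4a2 and Clec4b1 at 87.6% of 630. The longest stretches that each pair shares without a mismatch are shown, since reads of 50 bases from within them cannot be assigned to 1 gene. The first is 183 bases long, at chr11:70169822-70170189 of Clec10a and chr11:70136337-70136699 of Mgl2, where it runs across exon junctions. The second is 82 bases long and lies within 1 exon, at chr6:123140682-123140763 of Clec4a2 and chr6:123069682-123069763 of Clec4b1. Both are on the plus strand and were read from the GENCODE M21 transcripts (GRCm38).
Clec10a and Mgl2: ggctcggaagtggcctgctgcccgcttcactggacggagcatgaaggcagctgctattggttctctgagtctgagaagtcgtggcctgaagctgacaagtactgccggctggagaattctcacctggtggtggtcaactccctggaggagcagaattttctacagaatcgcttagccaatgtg
Clec4a2 and Clec4b1: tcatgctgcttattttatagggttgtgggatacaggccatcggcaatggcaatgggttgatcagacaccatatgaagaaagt

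Of the 50-base windows of the annotated transcripts, 86.9% were unique to Mgl2, 91.0% to Clec10a, 91.3% to Clec4b1, 93.2% to Clec4a2 and 99.3% to Clec4n. The other 5 members had 100% unique windows. How reads with several matches were counted is not given in the sources used here, so the levels of Mgl2, Clec10a, Clec4b1 and Clec4a2 carry that uncertainty. Clec7a shares 725 of its 2277 exon bases with an unnamed gene on the same strand, which had 0 reads in all 5 libraries. Whether reads in those bases were counted for Clec7a is not given in the sources used here. The level of Clec7a, also per length, carries that uncertainty.

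Together the 10 genes took 0.283, 0.359 and 0.372% of the reads in adventitia and 0.300 and 0.165% in intima, so the groups overlapped in the total. Single members were apart. Clec4a2, Clec4e, Clec10a and Mgl2 had higher deposited CPM in every adventitia library than in either intima library, and Clec7a had lower CPM in every adventitia library. The other 5 members overlapped. Among all 13408 genes tested, 26.4% had adventitia ranges wholly above intima and 14.1% wholly below it, 40.5% in all, and the counts of 4 and 1 among 10 members have to be read against those shares. In edgeR's quasi-likelihood test 0 of 10 members passed an adjusted p of 0.05, where 0.671% of all genes did (20 higher, 0.149%, and 70 lower, 0.522%). At an unadjusted p of 0.05 edgeR had 2 members higher (Clec4e and Clec10a) and 1 lower (Clec7a), against 14.3% of all genes higher and 22.4% in either direction. DESeq2 called 2 members higher in adventitia, Clec4e and Clec10a, where it called 5.41% of all genes higher and 9.14% in either direction, and limma voom called 0 members and 6.26% of all genes. The members' median log2 difference, adventitia minus intima, was 0.78 with 8 of 10 above 0, beside a median of -0.14 and 46.6% above 0 over all genes tested. All 10 passed the filter on low counts, and Clec4e passed it through the adventitia libraries.

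**Figure D1:**
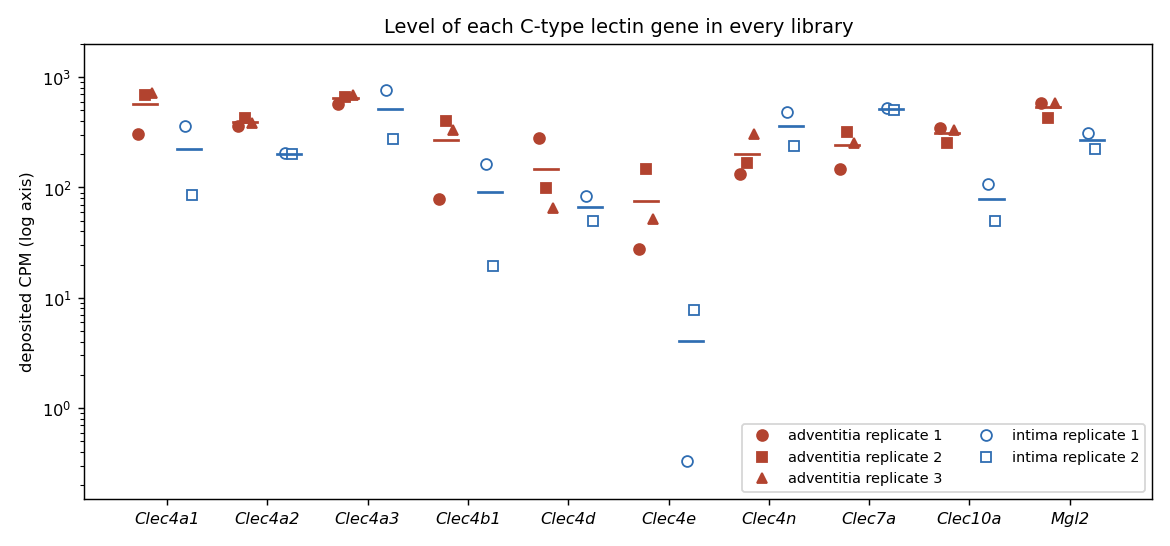
Deposited CPM on a log axis of each of the 10 lectins in each library, with adventitia (3 libraries) left of intima (2 libraries), 1 point a library and a bar at the mean. Clec4e has the widest span, with 27.4 to 146 CPM in adventitia and 0.334 and 7.79 CPM in intima, and Clec7a is the member whose adventitia points all lie under its intima points.

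The DCIR-type genes were the most abundant group, with 43.9, 49.4 and 48.2% of the members' reads in adventitia and 44.3 and 33.9% in intima. Clec4a2, which encodes the inhibitory receptor DCIR1, had 1420, 4309 and 3877 reads (360.3, 428 and 386 CPM) in adventitia and 3084 and 4151 reads (206 and 199.5 CPM) in intima. It varied little within each group, and its groups did not overlap. Its edgeR log2 difference was 0.71 ± 0.41 (SE, 95% interval -0.19 to 1.62, adjusted p = 0.336), so it was not called.

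Clec4a1, which encodes the DCIR-type receptor DCIR4, had 1216, 6896 and 7155 reads (309, 684 and 712 CPM) in adventitia and 5440 and 1792 reads (363 and 86.1 CPM) in intima. The first adventitia library lay below the first intima library, and the second intima library was the lowest of all 5. The log2 difference of Clec4a1 was 1.08 ± 0.65 (SE, 95% interval -0.36 to 2.52) and edgeR's adjusted p was 0.362.

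Clec4a3, which encodes DCIR3, had 2263, 6631 and 6992 reads (574, 658 and 695 CPM) in adventitia and 11384 and 5712 reads (760.4 and 275 CPM) in intima. The adventitia libraries lay between the 2 intima libraries. Its log2 difference was 0.045 ± 0.50 (SE, 95% interval -1.05 to 1.14, edgeR adjusted p = 0.976), and its sign turned with the library left out: -0.64 without intima replicate 2 and 1.22 without intima replicate 1.

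The activating-type Dectin-2 cluster genes Clec4b1, Clec4n, Clec4d and Clec4e together took 18.2, 22.7 and 20.2% of the members' reads in adventitia and 24.2 and 19.0% in intima, but their log2 differences had both signs. Clec4b1, which encodes the activating receptor DCAR, had 307, 4059 and 3342 reads (77.9, 403 and 332 CPM) in adventitia and 2429 and 405 reads (162 and 19.5 CPM) in intima. Each group held 1 low library, the first of adventitia and the second of intima, and the ranges overlapped. The log2 difference of Clec4b1 was 1.32 ± 0.89 (SE, 95% interval -0.63 to 3.26, edgeR adjusted p = 0.420).

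Clec4n, which encodes Dectin-2, a receptor for fungal alpha-mannans, had 526, 1689 and 3050 reads (133, 168 and 303 CPM) in adventitia and 7201 and 4918 reads (481 and 236 CPM) in intima. The third adventitia library lay above the second intima library, so the groups overlapped. Its log2 difference was -1.07 ± 0.53 (SE, 95% interval -2.23 to 0.09, edgeR adjusted p = 0.257).

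Clec4d, which encodes MCL, a partner of Mincle in the recognition of mycobacterial glycolipid, had 1096, 998 and 655 reads (278, 99.05 and 65.1 CPM) in adventitia and 1242 and 1039 reads (83.0 and 49.9 CPM) in intima. The first adventitia library stood above the other 4, and the third lay between the intima libraries. The log2 difference of Clec4d was 0.83 ± 0.64 (SE, 95% interval -0.58 to 2.25, edgeR adjusted p = 0.495).

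Clec4e encodes Mincle, which binds mycobacterial cord factor and a nuclear protein released by dying cells. It had 108, 1470 and 518 reads (27.4, 146 and 51.5 CPM) in adventitia and 5 and 162 reads (0.334 and 7.79 CPM) in intima. The lowest adventitia library was above the higher intima library, although values differed several fold inside both groups. The log2 difference of Clec4e was 4.06 ± 1.30 (SE, 95% interval 1.21 to 6.91), the largest among the members, with an unadjusted p of 0.0093 and an adjusted p of 0.113 in edgeR. DESeq2 called it, with a log2 difference of 4.24 ± 1.13 (SE) and an adjusted p of 0.00405. Clec4e passed the low-count filter through the adventitia libraries, where it is high, so these tests are not taken as support for the difference. Over the 15 alternatives its adjusted p ranged between 0.00405 and 0.417 and its log2 difference between 3.18 and 7.39.

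Clec7a encodes Dectin-1, the receptor for beta-glucan. It had 578, 3233 and 2566 reads (147, 321 and 255 CPM) in adventitia and 7818 and 10546 reads (522 and 507 CPM) in intima. All adventitia libraries were below both intima libraries, and the intima libraries were close to each other. The log2 difference of Clec7a was -1.31 ± 0.46 (SE, 95% interval -2.31 to -0.31), with an unadjusted p of 0.0148 and an adjusted p of 0.130 in edgeR, so it was not called. It stayed below 0 in all 15 alternatives, between -1.54 and -0.84.

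Clec10a, which encodes MGL1, had 1363, 2553 and 3307 reads (346, 253 and 329 CPM) in adventitia and 1618 and 1039 reads (108 and 49.9 CPM) in intima. The groups did not overlap and the adventitia libraries were close to each other. The log2 difference of Clec10a was 1.70 ± 0.52 (SE, 95% interval 0.57 to 2.83), with an unadjusted p of 0.0069 and an adjusted p of 0.113 in edgeR. DESeq2 called it at 1.83 ± 0.62 (SE, adjusted p = 0.0370). Without intima replicate 1 its edgeR log2 difference was 2.61, in a fit whose spread came from the adventitia libraries alone. Over the 15 alternatives its adjusted p ranged between 0.0370 and 0.259.

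Mgl2, which encodes MGL2, had 2287, 4292 and 5925 reads (580.3, 426 and 589 CPM) in adventitia and 4704 and 4639 reads (314 and 223 CPM) in intima. Every adventitia library was above both intima libraries. Its log2 difference was 0.73 ± 0.43 (SE, 95% interval -0.21 to 1.67, edgeR adjusted p = 0.344). The sum of the MGL pair was 926, 679 and 918 CPM in adventitia and 422 and 273 CPM in intima. This sum does not depend on how reads were divided within the pair, provided that each shared read was counted once. Whether that held is not given in the sources used here.

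**Figure D2:**
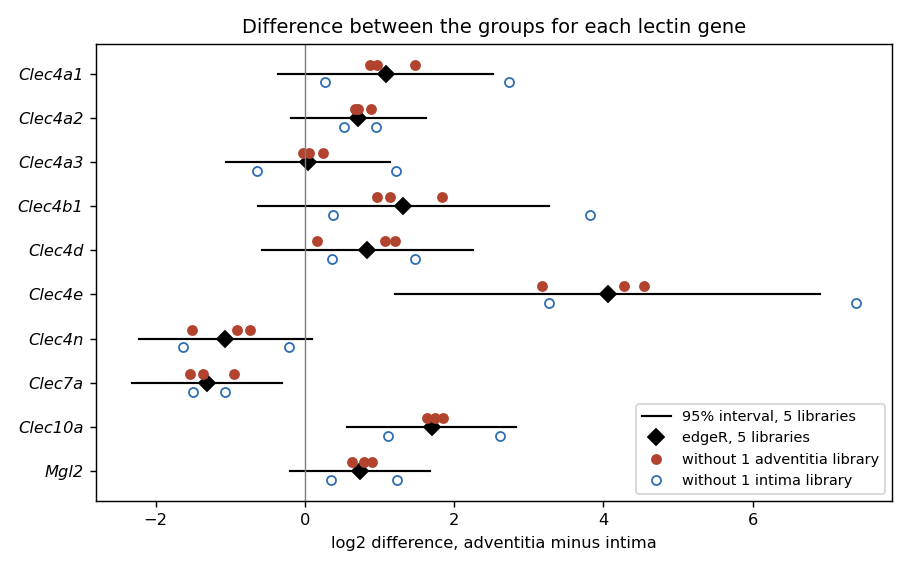
Log2 difference, adventitia minus intima, of each lectin in edgeR with TMM scaling, with a diamond for the estimate, a line for the 95% interval over 3 adventitia and 2 intima libraries, and small points for the estimate without 1 adventitia (filled) or 1 intima (open) library. The intervals of Clec4e (1.21 to 6.91), Clec10a (0.57 to 2.83) and Clec7a (-2.31 to -0.31) lie off 0 before adjustment over 13408 genes, and 0 of the 10 passed after it.

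The comparison of CPM leans on the scaling between libraries. Upper-quartile scaling moved the median log2 difference of all genes to 0.35, against -0.14 with TMM, and gave 29 genes higher and 46 lower (38.7% higher) where TMM gave 20 and 70 (22.2% higher); library size alone gave 34 and 59 (36.6% higher). The share of each lectin within the members' own reads does not use a scaling factor. On that measure Clec7a had 5.18 to 8.95% in adventitia against 17.4 and 30.7% in intima, and Clec4n 4.67 to 8.16% against 16.03 and 14.3%. Clec10a had 7.07 to 12.2% in adventitia against 3.60 and 3.02% in intima, and Clec4e 0.967 to 4.07% against 0.0111 and 0.471%. Those 4 did not overlap between the groups, and the other 6 did. Such shares were not computed for other genes, but in CPM 40.5% of all genes tested had ranges that did not overlap. Clec4n thus separated as a share of the lectin reads but not in CPM, whereas Clec4a2 and Mgl2 separated in CPM but not as a share. The shares of a library add up to a fixed whole, so a higher share of any lectin lowers the shares of the others. What this dependence adds to the differences in share, that of Clec4n included, was not tested. With 3 libraries against 2, an exact permutation test cannot give a two-sided p below 0.1, so single shares and ratios were not tested.

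**Figure D3:**
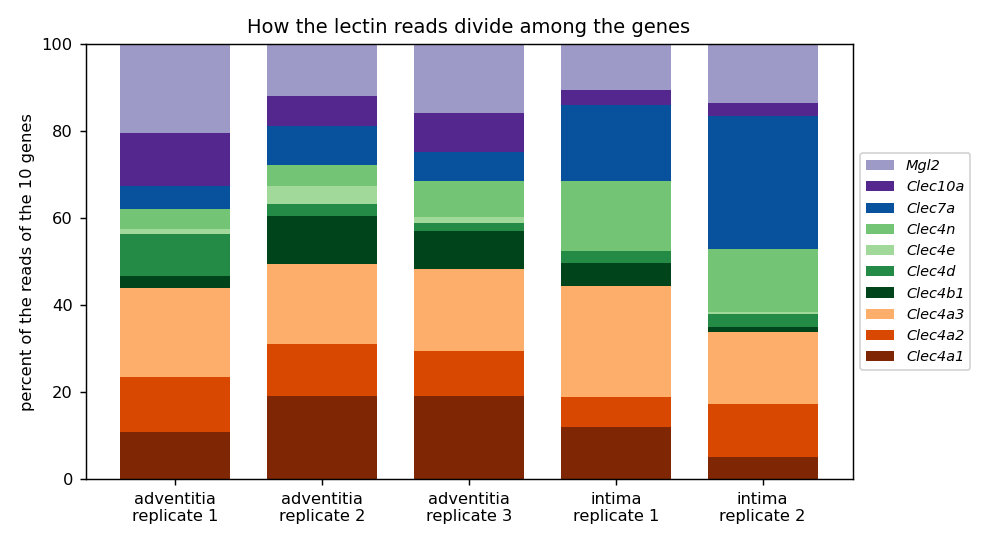
Share of the 10 lectins' reads taken by each gene, in percent, with 1 stacked bar a library and the 3 adventitia libraries left of the 2 intima libraries. Clec7a fills 5.18 to 8.95% of the adventitia bars and 17.4 and 30.7% of the intima bars.

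Levels of different genes were compared per length, as the deposited RPKM (CPM per kilobase of annotated exon). The ratio of Mgl2 to Clec10a RPKM was 2.32, 2.33 and 2.48 in adventitia and 4.02 and 6.18 in intima. It was nearly constant in adventitia and higher in both intima libraries, so the neighbouring genes differed unequally between the groups, within the limit set by their shared bases. The ratio of Clec4a3 to Clec4a1 was 2.18, 1.13 and 1.15 in adventitia and 2.46 and 3.74 in intima. Its first adventitia library lay near the first intima library. The ratio of Clec4a3 to Clec4a2 was 3.43, 3.32 and 3.89 in adventitia and 7.96 and 2.97 in intima, with the adventitia libraries between those of intima. Clec4d over Clec4n was 2.21, 0.628 and 0.228 in adventitia and 0.183 and 0.225 in intima. All adventitia libraries were above both intima libraries, the third by little. Clec4d over Clec4e was 37.7, 2.52 and 4.70 in adventitia and 923 and 23.8 in intima, where the first value of intima rests on 5 reads of Clec4e.

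**Figure D4:**
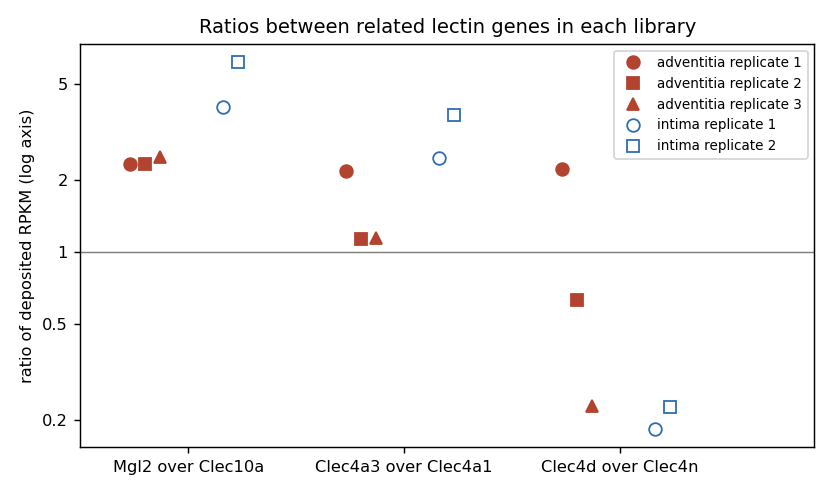
Ratio of deposited RPKM for 3 pairs of related lectins in each library, on a log axis with a line at 1, with adventitia left of intima and 1 point a library. Mgl2 over Clec10a sits at 2.32 to 2.48 in adventitia, under the intima values of 4.02 and 6.18.

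Ordered by mean RPKM, adventitia had Clec4a3 (484 ± 46.8, SD, n = 3), Clec4a1 (365 ± 145), Clec4b1 (346 ± 218), Mgl2 (254 ± 43.8), Clec4n (142 ± 63.3), Clec4a2 (137 ± 11.9), Clec4d (110.3 ± 85.6), Clec10a (107 ± 16.98), Clec7a (106 ± 38.6) and Clec4e (15.1 ± 12.6). The ranges of 8 of the 9 neighbouring pairs in that order overlapped, so only the last place, that of Clec4e below Clec7a, was set apart from its neighbour. Intima had the order Clec4a3 (389.97 ± 259, SD, n = 2), Clec4n (253 ± 122), Clec7a (226 ± 4.78), Clec4a1 (144 ± 126), Mgl2 (128 ± 30.8), Clec4b1 (116 ± 129), Clec4a2 (70.9 ± 1.61), Clec4d (49.7 ± 17.5), Clec10a (27.3 ± 14.2) and Clec4e (0.818 ± 1.06), also in mean RPKM. There Clec4a2, Clec4d, Clec10a and Clec4e did not overlap with one another as neighbours, 3 pairs of 9, while the ranges of the other 6 neighbouring pairs did. Clec4a3 led and Clec4e was last in both groups. Clec7a held place 9 in adventitia and place 3 in intima. The annotated exon length of Clec4e, 4965 bases, is the longest of the 10 and lowers its RPKM.

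Within the groups the members had a larger median spread than all genes of at least moderate level. Between the intima libraries the median absolute log2 difference was 1.23 over the members, beside 0.88 over 5611 genes with a mean log2 CPM of at least 4, and the median range among the adventitia libraries was 1.34 beside 0.99 on the log2 scale. Clec4e, Clec4b1 and Clec4a1 led the intima spread, at 3.28, -3.19 and -2.23 (log2, replicate 2 minus replicate 1). Clec4a2 and Clec7a, at -0.21 each, spread least. Clec4e was thus higher in intima replicate 2 and the other 9 were higher in replicate 1. Leaving out 1 library placed the log2 difference between 0.38 and 3.83 for Clec4b1 and between 0.27 and 2.74 for Clec4a1.

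Likeness of pattern was measured as the root mean square difference of the mean-centred log2 profiles over 5 libraries, and the nearest member and the nearest of 5601 other genes were taken for each. Clec4b1 and Clec4a1 were each other's nearest members (0.53), and 5 other genes were nearer to Clec4b1 than Clec4a1 was, the nearest being Pycard (0.48), the inflammasome adaptor. Clec4n and Clec7a were also each other's nearest members (0.52), with Fam173a (0.080) nearest to Clec4n and Ppp2r5c (0.092) to Clec7a among other genes. Clec4a2 and Mgl2 formed the closest pair of members (0.28), although they lie on different chromosomes, and the nearest other genes were mt-Cytb (0.076) for Clec4a2 and Ms4a4a (0.079) for Mgl2. The nearest member of Clec4a3 (0.44), Clec4d (0.67) and Clec10a (0.56) was Mgl2, and their nearest other genes were Hsbp1 (0.076), Ogfrl1 (0.16) and Fam204a (0.13). Clec4e was far from every member, its nearest being Clec10a (2.10), and its nearest other gene was Dot1l (0.76). Mapkapk3 (0.19) was nearest to Clec4a1. With 5 libraries in 2 groups such profiles share depth and group, and many genes lie as near.

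Of the members whose groups did not overlap, 3 are shown with the bases before their start, from the RefSeq promoter table (GRCm38.p6), which holds 8 of the 10 members. Clec4n and Clec10a are named only. In each window of 300 bases, 250 before and 50 after the start, 3 motifs were searched on both strands, and overlaps between motifs were allowed. GAGGAAG, an ETS-type motif bound by PU.1, was in 13.6% of 32851 windows and in those of 2 members, Clec4a1 and Clec4d. A STAT6-type motif, TTC and GAA with 4 bases between them, was in 6.95% of all windows and in those of Clec4a1 and Clec7a. TTNNGNAA, a motif of C/EBP factors, was in 40.7% of all windows and in those of 4 members, Clec4a2, Clec4d, Clec4e and Mgl2. The 250 bases before the start are given 5′ to 3′ on the strand of each gene with matches in capitals, at chr6:123289872-123290121 (minus strand) for Clec4e, chr6:129472780-129473029 (minus strand) for Clec7a and chr11:70130107-70130356 (plus strand) for Mgl2. The capitals mark TTNNGNAA in Clec4e and Mgl2 and the STAT6-type motif in Clec7a.
Clec4e: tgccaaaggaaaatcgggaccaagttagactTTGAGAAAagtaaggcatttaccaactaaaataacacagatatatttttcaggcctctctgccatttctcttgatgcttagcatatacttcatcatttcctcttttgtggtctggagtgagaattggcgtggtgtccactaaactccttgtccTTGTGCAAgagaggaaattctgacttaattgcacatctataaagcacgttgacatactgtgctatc
Clec7a: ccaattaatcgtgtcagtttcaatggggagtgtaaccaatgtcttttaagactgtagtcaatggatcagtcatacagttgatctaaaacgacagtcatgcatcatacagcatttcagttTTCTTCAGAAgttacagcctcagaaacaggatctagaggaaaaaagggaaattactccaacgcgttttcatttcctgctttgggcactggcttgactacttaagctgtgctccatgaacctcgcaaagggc
Mgl2: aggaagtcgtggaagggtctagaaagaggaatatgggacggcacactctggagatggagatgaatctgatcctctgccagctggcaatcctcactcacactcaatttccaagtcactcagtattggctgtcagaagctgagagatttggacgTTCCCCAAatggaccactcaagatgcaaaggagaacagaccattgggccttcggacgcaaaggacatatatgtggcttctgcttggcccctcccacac

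A match in such a window is a description of the letters and not of binding.

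The adaptors, kinases and transcription factors that act after the activating lectins numbered 18, of which 17 had reads in all 5 libraries; Src had none in intima replicate 1, and Card9, the CARD9 gene, had 1 read there. None of the 18 passed edgeR's threshold in either direction (median log2 difference -0.16). At an unadjusted p of 0.05 edgeR had 0 higher and 2 lower, beside 22.4% of all tested genes in either direction. DESeq2 and limma voom called 0 of the 18. Fcer1g, the gamma chain used by Dectin-2 and Mincle, had 4177, 5369 and 4405 CPM in adventitia and 3230 and 1402 CPM in intima (log2 difference 0.74 ± 0.51, SE, edgeR adjusted p = 0.429). Tyrobp, which encodes the adaptor DAP12, had 1353, 1726 and 1932 CPM in adventitia and 2249 and 851 CPM in intima, overlapping. Lyn, a Src-family kinase, overlapped too, with 189, 451 and 349 CPM in adventitia and 356 and 248 CPM in intima. Prkcd, the kinase between Syk and CARD9, had 107, 163 and 133 CPM in adventitia against 248 and 268 CPM in intima, without overlap (log2 difference -1.16 ± 0.44, SE, edgeR adjusted p = 0.149).

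The phosphatases of the inhibitory route numbered 3, and edgeR called 0 of them (median log2 difference -0.50). At an unadjusted p of 0.05 edgeR had 0 higher and 1 lower, beside 22.4% of all tested genes in either direction. DESeq2 and limma voom called 0 of the 3. Ptpn6, which encodes SHP-1, had 212, 208 and 179 CPM in adventitia and 353 and 649.6 CPM in intima. Its groups did not overlap, and its log2 difference was -1.55 ± 0.41 (SE, edgeR adjusted p = 0.0900). Inpp5d, which encodes SHIP-1, had 187, 228 and 144 CPM in adventitia and 249 and 193 CPM in intima, and Ptpn11, which encodes SHP-2, had 30.4, 14.9 and 19.3 CPM against 7.55 and 15.5 CPM. Both overlapped.

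Of 16 cytokine and early response genes known to be induced through Dectin receptors in cultured myeloid cells, 11 were tested and edgeR called 0. Their median log2 difference was 0.93. At an unadjusted p of 0.05 edgeR had 3 higher and 1 lower, beside 14.3% of all tested genes higher and 22.4% in either direction. DESeq2 called 2 higher, Ptgs2 and Nlrp3, where it called 5.41% of all genes higher, and limma voom called 0. The most abundant went in both directions. The neutrophil chemokine gene Cxcl2 had 6914, 6129 and 4384 CPM in adventitia against 2404 and 2628 CPM in intima, without overlap (log2 difference 0.96 ± 0.44, SE, edgeR adjusted p = 0.227). The chemokine gene Ccl4 had 4181, 5387 and 3564 CPM in adventitia against 6039.9 and 5489 CPM in intima (log2 difference -0.64 ± 0.44, SE, edgeR adjusted p = 0.430), and Ccl3 had 1395, 1620.1 and 1043 CPM against 1936 and 1762 CPM; both genes were lower in each adventitia library. Egr1, an early growth response factor, had 1699, 1458 and 824 CPM in adventitia and 707 and 439.5 CPM in intima. Its groups did not overlap in these deposited values (log2 difference 0.93 ± 0.46, SE, edgeR adjusted p = 0.260). After TMM scaling they did, with 829.25 CPM in adventitia replicate 3 and 829.41 CPM in intima replicate 1.

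Of 11 IL-4 and STAT6 responsive macrophage genes, the programme in which the MGL genes are usually counted, 9 were tested and edgeR called 0. At an unadjusted p of 0.05 edgeR had 3 higher (Arg1, Ccl17 and Chil3) and 0 lower, beside 14.3% of all tested genes higher. DESeq2 and limma voom each called 1 higher, Arg1, where they called 9.14 and 6.26% of all genes in either direction. Arg1, Ccl17 and Chil3 had few or no reads in intima and passed the low-count filter through the adventitia libraries. Their tests are therefore not taken as support for a difference. The median log2 difference of the 9 tested genes was 1.11. It was the same with the chemokine gene Ccl17, which had no read in either intima library, set at its bound. Retnla, which encodes the secreted protein RELMα, had 2077, 1289 and 1880.1 CPM in adventitia and 2028 and 29.3 CPM in intima, so the first intima library lay within the adventitia values and the second far below them. Klf4, a transcription factor, had 122, 213 and 92.7 CPM in adventitia and 174 and 76.6 CPM in intima, and the receptor gene Il4ra 135, 129 and 142 CPM against 48.0 and 214 CPM. The eotaxin gene Ccl24 had 213, 133 and 175 CPM in adventitia and 111 and 19.6 CPM in intima (log2 difference 1.11 ± 0.69, SE, edgeR adjusted p = 0.378).

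Among 9 other C-type lectin genes of the same gene clusters, 5 were tested and edgeR called 0 (median log2 difference -2.11). At an unadjusted p of 0.05 edgeR had 0 higher and 1 lower, beside 22.4% of all tested genes in either direction. DESeq2 and limma voom each called 1 lower, Clec1b, where they called 9.14 and 6.26% of all genes in either direction. Clec12a, an inhibitory receptor gene, was as abundant as the members and overlapped, with 365, 664 and 658 CPM in adventitia and 518 and 338 CPM in intima. Clec1b, which encodes the podoplanin receptor CLEC-2, had 0, 1.69 and 7.56 CPM in adventitia against 44.8 and 46.4 CPM in intima, without overlap (log2 difference -4.02 ± 1.46, SE, edgeR adjusted p = 0.142). Clec1a had 1.27, 3.47 and 6.96 CPM in adventitia and 6.81 and 24.0 CPM in intima. Clec9a, a receptor of cross-presenting dendritic cells, had 4.82, 0.397 and 0.895 CPM in adventitia and 4.94 and 21.5 CPM in intima.

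Of 14 other lectins and lectin receptors, 11 were tested, and edgeR called 0 higher and 2 lower (median log2 difference 0.24). DESeq2 called 1 higher, Mrc2, and 3 lower, and limma voom called 2 higher, Mrc1 and Mrc2, and 3 lower. The 3 were Cd207, Lgals3 and Clec14a in both. Over all genes tested DESeq2 called 9.14% in either direction and 5.41% higher, and limma voom called 6.26% in either direction. Mrc2 had 13, 68 and 17 reads in adventitia against 0 and 1 in intima. It passed the low-count filter through the adventitia libraries, so its calls are not taken as support for a difference. Lgals3, which encodes galectin-3, fell by 2.16 ± 0.42 on the log2 scale (SE, edgeR adjusted p = 0.0482), with 179, 240.0 and 291 CPM in adventitia against 768 and 1062 CPM in intima. Its call was lost with the other scalings (edgeR adjusted p = 0.0542 to 0.0895), with thinning (0.0961) and without any 1 of the adventitia libraries or intima replicate 2 (0.0585 to 0.215). Clec14a, a lectin gene of endothelial cells, fell by 6.06 ± 1.01 on the log2 scale (SE, edgeR adjusted p = 0.0203), with 3.81, 0.595 and 0.995 CPM in adventitia against 134 and 47.8 CPM in intima. Of the 8 endothelial markers, 7 were also lower in every adventitia library, while Kdr, with few reads in intima, was higher in each. The part of endothelial cells in the Clec14a difference was not tested. The call of Clec14a was lost with thinning (edgeR adjusted p = 0.0565) and without any 1 of the adventitia libraries or intima replicate 1 (0.0566 to 0.124). Mrc1, the mannose receptor, had 3376, 2706 and 2251 CPM in adventitia against 1087 and 486 CPM in intima, without overlap (log2 difference 1.54 ± 0.50, SE, edgeR adjusted p = 0.115), and of the 3 tools limma voom alone called it. Cd302 had 456, 336 and 343 CPM in adventitia and 280.3 and 91.4 CPM in intima, and Clec5a, a DAP12-coupled receptor, had 163, 130.01 and 255 CPM against 340.4 and 216 CPM.

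**Figure D5:**
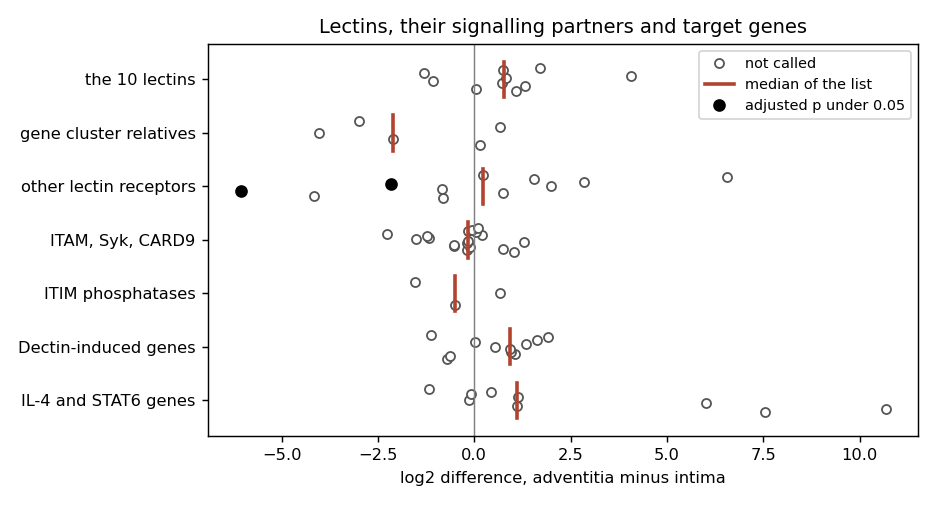
Log2 difference, adventitia minus intima, in edgeR of every tested gene of the members and of 6 lists around them, with 1 point a gene (filled where called), a line at 0 and a mark at each list's median. The members' median is 0.78 and that of the 18 Syk and CARD9 genes is -0.16; the point at 10.69 is Ccl17, whose fitted value rests on no read in intima.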

How the data were processed

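Sorted macrophages were lysed, cDNA was made with a kit for few cells, and single reads of 50 bases were sequenced, per the labels' protocols. GRCm38, STAR 2.0.4b, featureCounts 1.4.5 and Subread appear in the submitters' processing notes; the annotation, strand setting and handling of reads with several matches are not given in the sources used here. The authors deposited a table per library with whole-read counts, CPM and RPKM per gene ID. The deposited CPM and RPKM were recomputed from the counts and differed by more than 1e-06 in 0 values, so they carry no scaling beyond library size and exon length. Symbols were found for 40254 of 41388 IDs.

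Counts of all genes were tested with edgeR 4.0.16 in R 4.3.3 (filterByExpr by group, minimum count 10, minimum total 15, TMM, quasi-likelihood test, no covariates), with Benjamini-Hochberg adjustment over 13408 genes and calls at an adjusted p of 0.05. Standard errors are the log2 difference over the root of F. The test was run first on simulated counts. Profiles used log2(TMM CPM + 0.5) and genes with a mean log2 CPM of at least 4. Alternatives were other scalings and filters, DESeq2 1.42.0, limma voom 3.58.1, a robust fit, thinning, the replicate number as a block and leaving out each library. A floor of 3 reads was 0.144 to 0.761 CPM and covers counting error only.

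The members and lists were chosen with earlier results of these data known. Named beside the members were every called gene of each list, otherwise up to 4 of its most abundant, and the genes nearest in profile. Transcripts came from GENCODE M21. A search for protein motifs that had been planned was not run, since no protein table was at hand.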

Additional observations from a re-analysis of the deposited data

How the results depend on the processing

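Over 15 alternatives and 10 members, 142 log2 differences kept their direction and side of the threshold, 5 passed it and 3 turned in sign. The 3 were all of Clec4a3, at -0.17 with no filter, -0.03 without adventitia replicate 3 and -0.64 without intima replicate 2; leaving out 1 library moved it between -0.64 and 1.22. Clec4e passed with no filter, in DESeq2 and with the replicate number as a block, and Clec10a in DESeq2 and without intima replicate 1. Members called numbered 1 with no filter, 2 in DESeq2, 1 with the replicate block and 0 to 1 with 1 library left out, against 0 in the reported fit. Genes called numbered 386 with no filter, 396 with at least 1 CPM (65.9% higher), 1225 in DESeq2 (59.2% higher), 839 in limma voom (74.5% higher) and 183 with the block, against 90 (22.2% higher). Without adventitia replicates 1, 2 and 3 the counts were 10, 52 and 46, and without intima replicates 1 and 2 they were 389 and 136. A group left with 1 library was assumed to vary like the other. The intima libraries spread more, with a common coefficient of variation of 1.28 against 0.70 in adventitia. Calls made without an intima library therefore rest on too small a spread and carry no weight. The other scalings, the robust fit and thinning to 3941381 reads gave 67 to 93 calls. Deviations of same-numbered libraries correlated at 0.05 and -0.005 over 2 pairs. The deviations of the 2 intima libraries mirror each other, so this check cannot tell whether the replicate numbers pair the libraries. The block changed no call of a member but that of Clec4e. The cause of these shifts was not tested. At 5 libraries, and with 5 reads of Clec4e in intima replicate 1, the size of its difference is poorly fixed.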

Other observations

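The following lectins were chosen after their values were seen. Cd207, which encodes langerin, the lectin of Birbeck granules, had 1, 189 and 56 reads (0.254, 18.8 and 5.57 CPM) in adventitia against 2039 and 2515 reads (136 and 121 CPM) in intima. Its groups did not overlap, and its log2 difference was -4.15 ± 1.09 (SE, edgeR adjusted p = 0.0877). It was not called by edgeR but was called lower by DESeq2 and limma voom. Clec12b had 0, 3 and 0 reads in adventitia and 0 and 243 reads in intima, so all but 3 of its reads came from intima replicate 2. Clec4a4 and Clec4b2, the remaining relatives of the DCIR and DCAR genes, were near the floor, with 4, 7 and 8 reads of Clec4a4 in adventitia against 2 and 0 in intima, and 2 reads of Clec4b2 in each adventitia library against 0 and 0 in intima. Of the early response genes, Ptgs2, which encodes cyclooxygenase 2, had a log2 difference of 1.92 ± 0.60 (SE, edgeR adjusted p = 0.113), and Tnf had one of -1.13 ± 0.43 (SE, edgeR adjusted p = 0.156).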
